A study of Mus musculus with 6 samples.

Results

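The genes described here are the mitochondrial carriers, named Slc25a, and the genes named Timm or Tomm, most of which encode subunits of the machinery that imports proteins into mitochondria. They were chosen by symbol: of 12394 genes measured on the arrays, 55 had a single annotated symbol of these kinds, 33 of them carriers and 22 import genes. Expression was measured on 6 Affymetrix arrays of regulatory T (Treg) cells, CD4 T cells that restrain immune responses, obtained by sorting CD4+CD25+YFP+ cells out of spleens and lymph nodes of mice. The 3 arrays labelled Gata3-deficient came from Gata3F/FFoxp3YFP-Cre mice, in which both alleles of Gata3, a transcription factor gene of T cells, are floxed. The 3 arrays labelled Gata3-sufficient, titled WT, came from Gata3F/+Foxp3YFP-Cre mice, which carry the same Cre and 1 floxed allele, so they are not free of the recombinase or of a floxed allele. In both groups the Cre is expressed with YFP from the Foxp3 locus and so acts in cells that express Foxp3. The mice's age and sex are not given in the sources used here.

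Nearly all mitochondrial proteins are encoded in the nucleus and made in the cytosol. They enter through the TOM complex of the outer membrane, and are then passed to the TIM23 complex, which moves proteins into the matrix, or, by small Tim chaperones, to the TIM22 complex, which inserts carriers into the inner membrane. The carriers are thus cargo of the import machinery, and exchange nucleotides, phosphate, amino acids, carboxylates, cofactors and iron across the inner membrane. T cells enlarge and remodel their mitochondria on activation.

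Values are log2 intensities, so a difference of 1 is a doubling. The probe set with the highest mean stood for each gene, and differences are deficient minus sufficient arrays, with limma's moderated standard error (SE). A gene was called at an adjusted p under 0.05 (Benjamini-Hochberg over all 12394 genes). Where a gene is said to give a value, that value is its log2 difference between the groups. Array medians lay between 6.06 and 6.11. The Gata3 probe set read 9.48 ± 0.08 in the sufficient and 9.84 ± 0.14 in the deficient arrays (SD, n = 3 each, limma adjusted p = 0.0387), so it was higher, not lower, in the arrays labelled deficient. The sources used here do not say whether it lies in the deleted part of the gene, and outside that part it would check nothing. Throughout, deficient and sufficient are the labels' words, and every direction rests on the labels alone. Of 8 T and Treg cell markers 7 were above the dim range (a mean under 5.25), and Foxp3 was in it, at 3.90 in the sufficient and 3.94 in the deficient arrays. Deficient replicate 1 stood apart from replicates 2 and 3 on the second principal component (0.65 against -0.43 and -0.53). These are bulk samples, where fewer cells of a type and less RNA per cell cannot be told apart.

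Of the 55 genes, 2 rose in the deficient arrays and 0 fell. Both were carriers: Slc25a4, the heart and muscle type of ADP/ATP carrier, and Slc25a39, a carrier linked to mitochondrial glutathione import. Among all genes 1.44% were called higher and 0.766% lower, or 2.21% in either direction. None of the 22 import genes was called by limma, and an unadjusted p under 0.05 was reached by 2, both higher. Among carriers that p was reached by 7 that were higher and 1 that was lower, against 8.63% and 5.80% of all genes. Values of the groups did not overlap in 6 carriers and 4 import genes that were higher and in 1 carrier, Slc25a38, that was lower, against 11.3% and 8.51% of all genes.

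**Figure D1:**
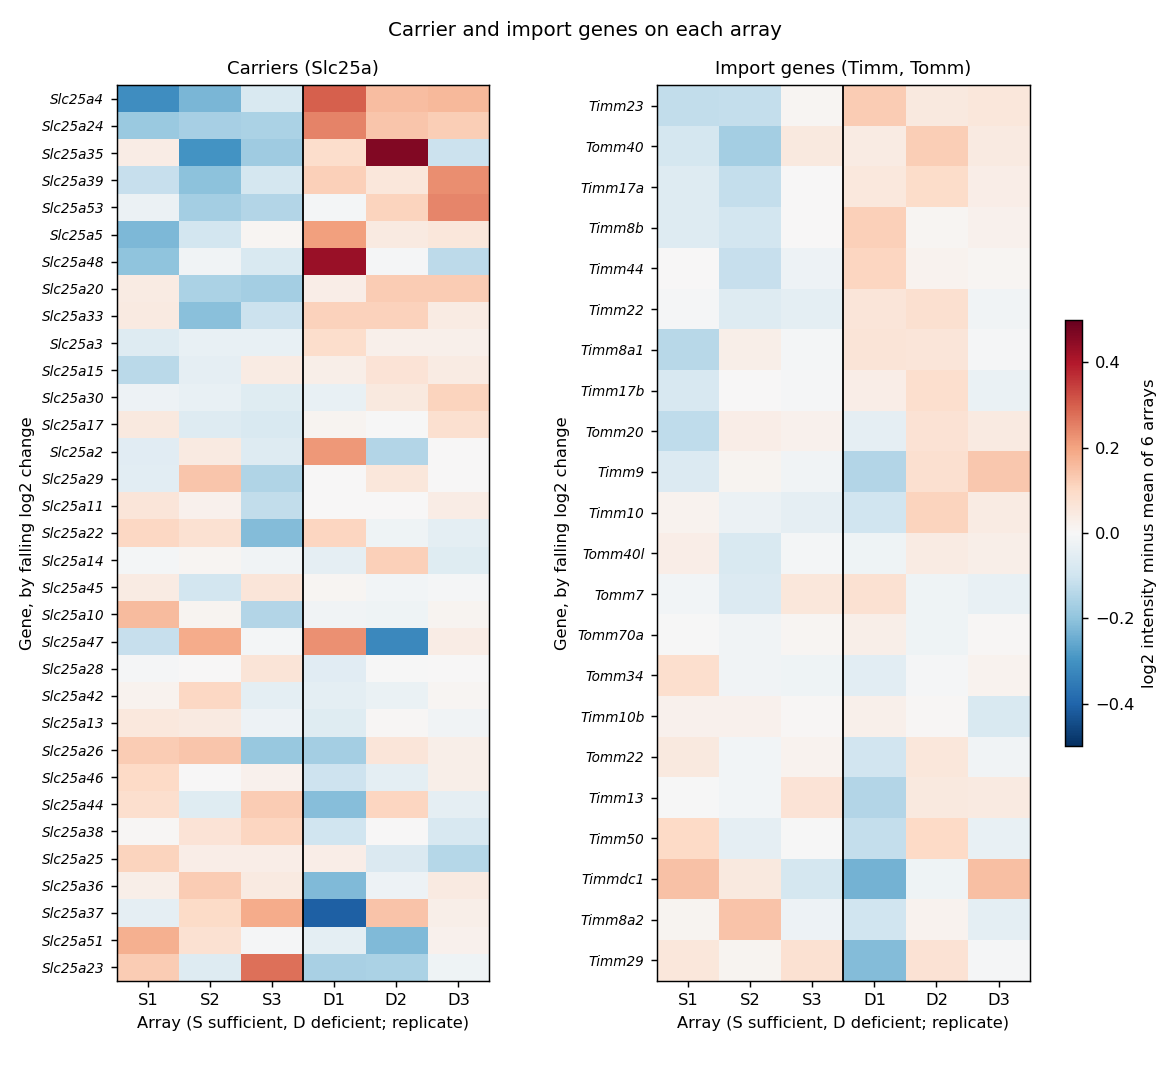
log2 intensity of each gene minus its mean over the 6 arrays, with carriers at left and import genes at right; columns are sufficient (S1 to S3) and deficient (D1 to D3) arrays and rows run from the highest to the lowest log2 change. Slc25a4 and Slc25a24 are low in all 3 sufficient and high in all 3 deficient arrays, while most rows show no such split, and the import panel spans a smaller range than the carrier panel.

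Proliferation genes were higher in the same deficient arrays: all 12 measured had a positive change (median 0.49), and 6 of them rose. Among all genes 53.0% had a positive change and 1.44% were called higher. The summed linear intensity of the proliferation genes ran from 4646 to 5114 in the sufficient and 5525 to 5601 in the deficient arrays. The 8 T and Treg cell genes, with 0 called by limma and 4 at an unadjusted p under 0.05, summed to 16070 to 17306 and 17460 to 18153. Among all genes 8.63% reached that unadjusted p with a positive and 5.80% with a negative change. Markers of other leukocytes were read too. All 5 neutrophil genes had a positive change with 0 called by limma and 2 at an unadjusted p under 0.05. Their sum was 133 to 148 in the sufficient and 151 to 310.2 in the deficient arrays, and S100a8, Ngp and Ltf were dim. That sum was highest in deficient replicate 3. Among the 5 neutrophil genes S100a9 had the largest change, 2.14-fold higher without overlap (1.10 ± 0.31, limma adjusted p = 0.113). Of the called members, Slc25a39 was highest in deficient replicate 3 and Slc25a4 in deficient replicate 1. The 6 myeloid genes summed to 252 to 318 and 317 to 495, with 0 called by limma and 3 at an unadjusted p under 0.05, and Itgam and Cd14 were dim. Lyz2 had the largest change among them, 2.03-fold higher without overlap (1.02 ± 0.26, limma adjusted p = 0.0849). Only the dim Itgam had a negative change (-0.10). Of the measured B cell (4), NK cell (3) and CD8 T cell (2) genes 0 were called by limma, with 1, 1 and 0 at an unadjusted p under 0.05. The NK cell gene was Klrd1, with a negative change and no overlap (-0.71), while the dim Ncr1 and Klra8 gave 0.03 and 0.09. The NK cell sum, with only Klrd1 above the dim range, was 139 to 176 in the sufficient and 75.04 to 128 in the deficient arrays. The B cell gene was Cd79b (0.23), while Ms4a1 gave -0.40 and the dim Cd79a and Blk gave -0.20 and 0.003. The B cell sums overlapped (243 to 265 and 253 to 273), as did those of CD8 T cell genes (115 to 140.4 and 126 to 133). The part of these cells or states in the changes of Slc25a4, Slc25a39 and Mpc1 was not tested.

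Promoter sequence played no part in choosing the genes and was searched for a few motifs, because ETS family factors and NRF1 are textbook regulators of nuclear genes for mitochondrial proteins. RefSeq promoters of assembly GRCm38.p6 were matched by symbol for 46 of the 55 genes, and the 250 bases before each start were searched on both strands. The ETS core CCGGAAG was found before 9 of 20 import genes (45%) and 5 of 26 carriers (19.2%), against 12.9% of tested genes and 7.83% of all genes with a promoter entry. The GC box GGGCGG was found before 10 of 20 import genes (50%) and 21 of 26 carriers (80.8%), against 57% of tested genes and 35.4% of all genes. Tomm34 and Timmdc1, which do not encode import subunits, are counted among the import genes with an ETS core and among those with a GC box. The NRF1-like letters GCGCANGCG were found before 2 import genes and 1 carrier, against 10.3% of tested genes, and the TATA box TATAAA before 1 import gene and 0 carriers, against 10.7%. Carriers had 35 windows and import genes 22, and a gene counted once if any window held the letters. By window the ETS core shares were 14.3% and 45.5%. The groups may differ in base composition, and sequence after the start site was not searched. The windows of Slc25a4 and Slc25a39, the genes that rose, of Slc25a5, the second ADP/ATP carrier, and of Timm23, the import gene with the smallest p, are shown 5′ to 3′ on the gene's strand, with matches to CCGGAAG or GGGCGG on either strand in capitals. They lie at chr8:46211063-46211312 (minus strand), chr11:102407518-102407767 (minus), chrX:36795347-36795596 (plus) and chr14:32201892-32202141 (minus) of GRCm38.p6.
Slc25a4: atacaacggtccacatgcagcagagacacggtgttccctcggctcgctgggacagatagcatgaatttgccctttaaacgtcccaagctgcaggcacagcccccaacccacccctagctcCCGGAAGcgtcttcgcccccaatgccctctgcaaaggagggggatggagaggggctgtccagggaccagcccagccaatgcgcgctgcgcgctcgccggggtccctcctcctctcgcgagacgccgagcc
Slc25a39: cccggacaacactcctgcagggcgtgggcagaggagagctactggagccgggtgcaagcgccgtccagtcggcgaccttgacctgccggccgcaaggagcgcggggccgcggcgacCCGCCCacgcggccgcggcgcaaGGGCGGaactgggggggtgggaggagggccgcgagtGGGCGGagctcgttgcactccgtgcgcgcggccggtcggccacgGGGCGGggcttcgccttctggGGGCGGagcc
Slc25a5: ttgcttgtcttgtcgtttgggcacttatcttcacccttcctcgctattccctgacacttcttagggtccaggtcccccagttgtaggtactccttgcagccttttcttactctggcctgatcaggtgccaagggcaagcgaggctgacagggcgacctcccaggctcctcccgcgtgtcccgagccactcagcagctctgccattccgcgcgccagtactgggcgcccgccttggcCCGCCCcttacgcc
Timm23: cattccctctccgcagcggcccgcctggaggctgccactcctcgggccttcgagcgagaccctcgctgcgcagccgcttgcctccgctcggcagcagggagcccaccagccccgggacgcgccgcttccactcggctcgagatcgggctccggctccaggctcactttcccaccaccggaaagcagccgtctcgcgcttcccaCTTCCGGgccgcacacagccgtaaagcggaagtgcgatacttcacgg

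The ADP/ATP carrier windows differ in these letters: that of Slc25a4 holds 1 ETS core and 0 GC boxes, and that of Slc25a5 0 and 1. The Slc25a39 window holds 5 GC boxes and the Timm23 window 1 ETS core. None of the 4 holds the NRF1-like letters or the TATA box. A match is a run of letters and not a measured binding site, and the arrays hold no measurement of binding.

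The ADP/ATP carriers exchange matrix ATP for cytosolic ADP, and the phosphate carrier Slc25a3 supplies phosphate for ATP synthesis. The 3 measured genes were higher in the deficient arrays without overlap, and 1 of the 3 passed. Among all genes 11.3% were higher without overlap and 1.44% were called higher. Slc25a4 read 10.20, 10.28 and 10.43 in the sufficient arrays and 10.81, 10.66 and 10.67 in the deficient arrays. Each deficient array was above each sufficient array, and the mean was 1.33-fold higher (log2 change 0.41 ± 0.07, SE, 95% interval 0.26 to 0.55, adjusted p = 0.0156). Slc25a4 no longer passed when sufficient replicate 2 was left out (0.40, adjusted p = 0.0868), when deficient replicate 2 was left out (0.44, 0.0551), or without the intensity trend (0.41, 0.0983). With probe sets of a suffix, which can match several transcripts, left out, it was read by a dim probe set alone (0.09, 0.764). Slc25a5, the ADP/ATP carrier of dividing cells, read 11.77, 11.90 and 12.002 against 12.20, 12.04 and 12.05. These values did not overlap, but the change of 0.20 ± 0.06 did not pass (adjusted p = 0.157). Slc25a3 read 11.74, 11.77 and 11.77 against 11.90, 11.83 and 11.84, also without overlap (0.09 ± 0.04, adjusted p = 0.279). In all 3 of these genes replicate 1 was the highest of the deficient and the lowest of the sufficient arrays. Slc25a31, the germ cell type, was not analysed here.

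The probe sets of the ADP/ATP carriers did not all read alike, and near-identical gene copies, among them a Slc25a5 pseudogene, can share their signal, so single values are uncertain. Of 4 Slc25a4 probe sets, the 3 that were not dim were higher by 0.41, 0.33 and 0.49, each without overlap between groups, and the dim one (mean 3.32) by 0.09. In a fit over all probe sets, where 1.37% were called, those 3 had adjusted p of 0.0214, 0.0516 and 0.0369. The 8 Slc25a5 probe sets ranged from -0.07 to 0.21. The 4 with the highest means were all higher, by 0.10 to 0.20, and 2 of the 4 with the lowest means had a negative change.

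**Figure D2:**
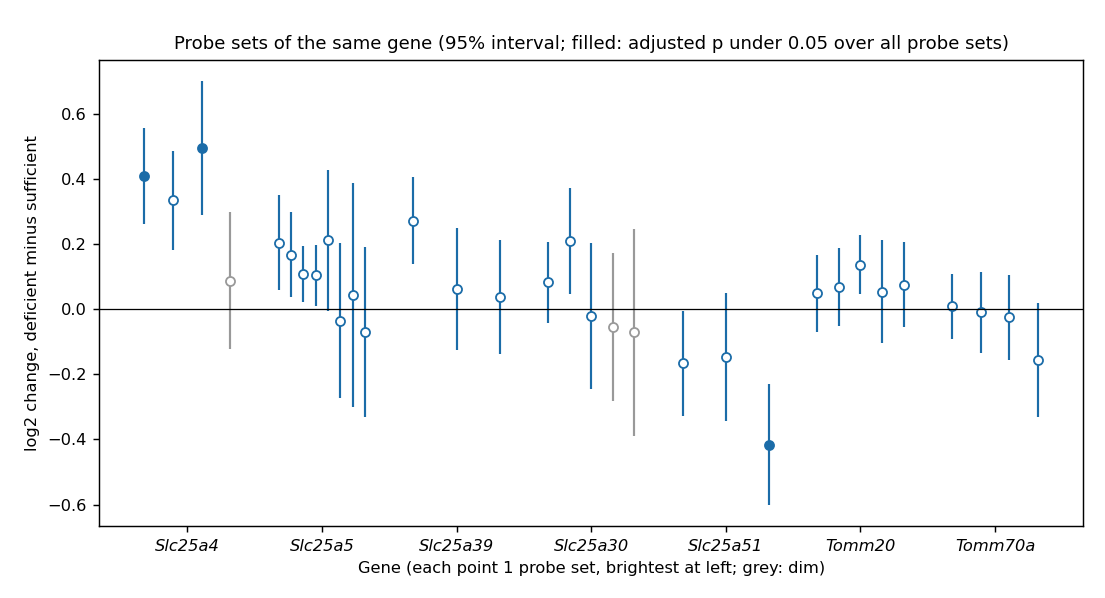
log2 change (deficient minus sufficient) and 95% interval of every probe set of 7 genes, each point 1 probe set with the brightest of a gene at left; filled points have an adjusted p under 0.05 over all probe sets and grey points are dim. The 3 Slc25a4 probe sets that are not dim lie between 0.33 and 0.49, Slc25a39 has 1 high and 2 near 0, and those of Slc25a5 lie on both sides of 0.

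Of the 2 measured genes in the haem and glutathione group 1 rose and 0 fell, against 1.44% and 0.766% of all genes. Slc25a39 read 9.32, 9.23 and 9.35 against 9.56, 9.49 and 9.67, without overlap and 1.21-fold higher (0.27 ± 0.06, SE, adjusted p = 0.045). This call rests on 1 of 3 probe sets, and over all probe sets its adjusted p was 0.062. The others gave 0.06 ± 0.08 and 0.04 ± 0.08, and their average with the first gave 0.12 (adjusted p = 0.386). The call was also lost in each of the 6 fits that left out 1 array (adjusted p 0.0745 to 0.203) and without the intensity trend (0.171). Slc25a38, which brings glycine into mitochondria for haem synthesis, read 7.66, 7.73 and 7.77 against 7.56, 7.66 and 7.58 (-0.12 ± 0.06, adjusted p = 0.431). The mitoferrins, which carry iron inwards, were not called. Slc25a37, the mitoferrin of red cell precursors, read 6.76, 6.90 and 6.99 against 6.40, 6.95 and 6.83. Only deficient replicate 1 was low there, and without it the difference went from -0.16 to 0.01. Slc25a28, the more widely expressed mitoferrin, gave -0.04 ± 0.05, from 8.18 to 8.14. All 4 measured erythroid markers (Hba-a1, Alas2, Epb42 and Klf1) were dim in both groups and 0 were called.

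The ATP-Mg/phosphate carriers, which adjust the matrix nucleotide pool, had values of both signs, and none passed. Slc25a24 read 6.30, 6.32 and 6.33 against 6.73, 6.62 and 6.61. The groups lay well apart, and the log2 change of 0.34 ± 0.08 stood just outside the threshold (1.27-fold, adjusted p = 0.0533). It passed when dim genes were left out (adjusted p = 0.0354), when arrays were weighted by quality (0.0289) and when each gene's probe sets were averaged (0.0358). Slc25a24 has 1 probe set, so averaging left its own change at 0.34, as did leaving out dim genes. It passed in 0 of the 6 fits that left out an array. Slc25a25 gave -0.12 ± 0.07, and Slc25a23, on a dim probe set, by -0.23 ± 0.11, and neither passed.

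Among carriers of cofactors and nucleotides none passed, and their changes ran from -0.17 to 0.19. Slc25a20, which brings acylcarnitines in for fatty acid oxidation, read 8.96, 8.76 and 8.75 against 8.96, 9.05 and 9.05. Sufficient replicate 1 lay level with deficient replicate 1 and below replicates 2 and 3, and the difference of 0.19 ± 0.07 did not pass (adjusted p = 0.192). Its other probe set was higher without overlap (0.25 ± 0.07, adjusted p = 0.134 over all probe sets). It passed when arrays were weighted by quality (0.23, adjusted p = 0.0484). Slc25a51, the mitochondrial NAD carrier, read 9.86, 9.76 and 9.68 against 9.63, 9.46 and 9.71 (-0.17 ± 0.07, adjusted p = 0.311). All 3 of its probe sets had a negative change, of -0.17, -0.15 and -0.42. The one with the lowest mean (7.43) read 7.604, 7.70 and 7.59 against 7.08, 7.21 and 7.36 and was called in the fit over all probe sets (-0.42 ± 0.08, adjusted p = 0.0474). The pyrimidine nucleotide carriers Slc25a33 (0.18 ± 0.08) and Slc25a36 (-0.13 ± 0.07) had changes of opposite sign on their highest-mean probe sets. The other Slc25a36 probe set, also not dim, gave 0.12 ± 0.09, so the sign for that gene depends on the probe set. Slc25a17, the peroxisomal member, gave 0.06, and Slc25a26 (S-adenosylmethionine) and Slc25a42 (coenzyme A) by -0.05 each.

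None of the carriers of carboxylates and amino acids passed. Slc25a10 (dicarboxylates), Slc25a11 (oxoglutarate), Slc25a13 (aspartate and glutamate) and Slc25a22 (glutamate) gave -0.05 to 0.03, with all 4 of their 95% intervals inside ±0.25. Slc25a11 read 8.06, 8.03 and 7.88 against 8.005, 8.004 and 8.04, so the groups overlapped in full. The 7 genes placed with amino acid and ornithine transport, not all of settled substrate, among them Slc25a15 (ornithine), Slc25a29 (basic amino acids) and Slc25a44 (branched-chain amino acids), ranged from -0.10 to 0.20. The upper end was Slc25a48, at 5.19, 5.38 and 5.32 against 5.83, 5.39 and 5.26, where deficient replicate 1 alone was high. Slc25a45 gave -0.01 ± 0.06, Slc25a15 0.09 ± 0.09, Slc25a29 0.04 ± 0.09 and Slc25a44 -0.10 ± 0.10. The other Slc25a44 probe sets, neither of them dim, had positive changes of 0.06 and 0.07. Slc25a2 and Slc25a47 were dim, with changes of 0.05 and -0.04.

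Of the remaining carriers, Slc25a53, of unassigned substrate, read 7.26, 7.12 and 7.14 against 7.28, 7.40 and 7.53 (0.23 ± 0.08, adjusted p = 0.215). The groups did not overlap, by a narrow margin between sufficient replicate 1 and deficient replicate 1. Slc25a46, an outer membrane protein that shapes mitochondria, gave -0.08 ± 0.05. The dim Slc25a35 gave 0.29 ± 0.15, with deficient replicate 2 highest at 5.36. Slc25a14 and Slc25a30, which resemble uncoupling proteins, gave 0.01 and 0.08. One of the 3 Slc25a30 probe sets that were not dim was higher (0.21 ± 0.07, adjusted p = 0.229 over all probe sets) and another was at -0.02.

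**Figure D3:**
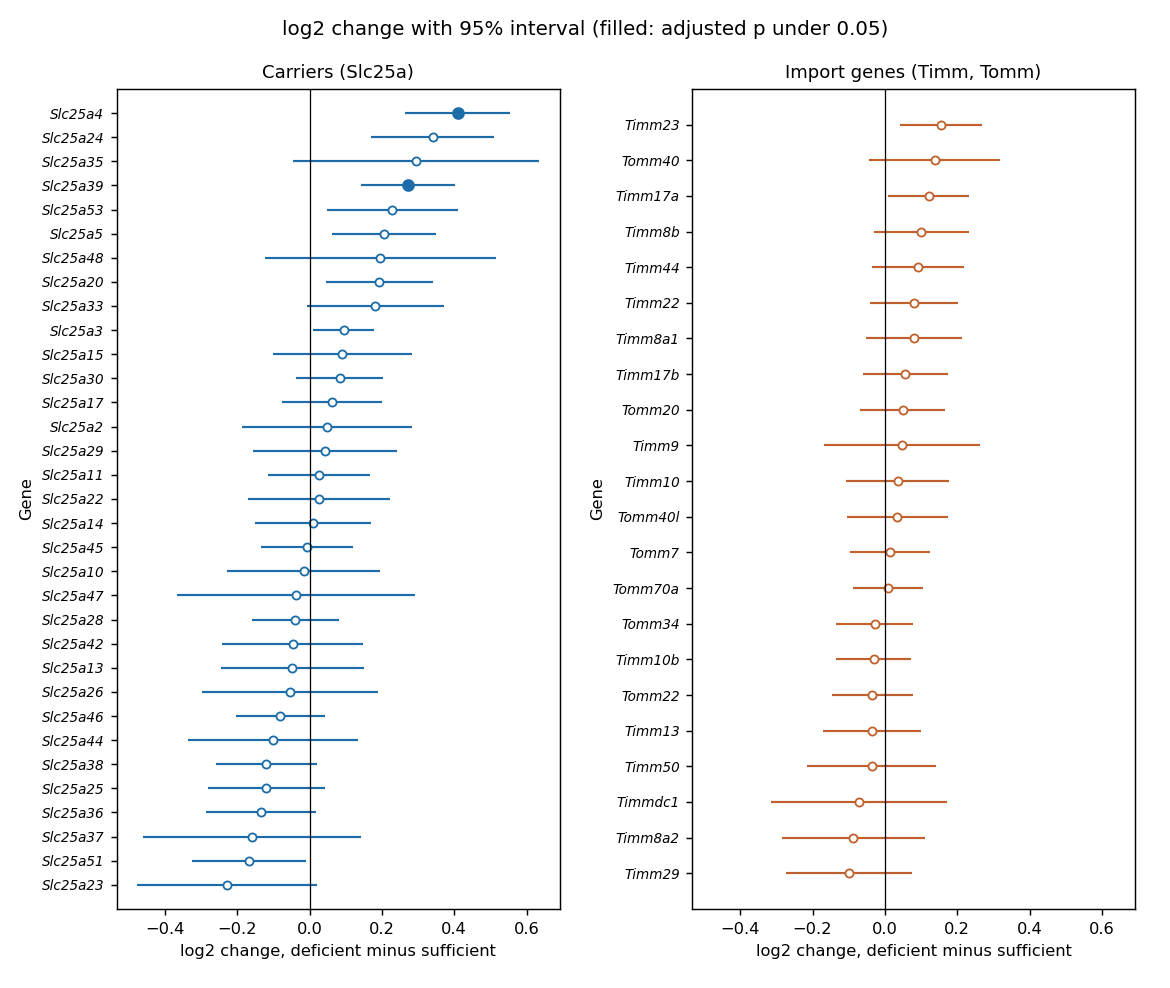
log2 change (deficient minus sufficient arrays) with limma's 95% interval for the 33 carriers and the 22 import genes; filled points have an adjusted p under 0.05 over all genes. Only Slc25a4 and Slc25a39 are filled, and the import genes lie between -0.10 and 0.16.

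In the import machinery none passed, and the largest changes were those of Timm23 (0.16) and Tomm40 (0.14), each the channel of its complex. Timm23, of the TIM23 complex, read 9.79, 9.79 and 9.92 against 10.04, 9.96 and 9.97. The groups did not overlap, and the change of 0.16 ± 0.05 did not pass (adjusted p = 0.177). Its partner Timm17a read 9.18, 9.13 and 9.25 against 9.30, 9.34 and 9.28, also without overlap (0.12 ± 0.05, adjusted p = 0.293). Timm17b, the alternative partner, read 8.85, 8.93 and 8.92 against 8.96, 9.01 and 8.89 and overlapped (0.06 ± 0.05). Timm50, the receptor that receives presequences, gave -0.04 ± 0.08. Timm44, which tethers the motor that pulls proteins into the matrix, read 8.44, 8.32 and 8.41 against 8.55, 8.46 and 8.45 (0.09 ± 0.06, adjusted p = 0.535).

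At the outer membrane, changes were small and none passed. Tomm20, the presequence receptor, read 12.18, 12.34 and 12.33 against 12.26, 12.38 and 12.35, with overlapping groups (0.05 ± 0.05, 95% interval -0.07 to 0.17). All 5 of its probe sets had a positive change, from 0.05 to 0.14. The one at 0.14 was higher without overlap (± 0.04, adjusted p = 0.155 over all probe sets), as was the one with the lowest mean (0.07 ± 0.06). Tomm70a, the receptor for carriers and other proteins without a presequence, read 9.40, 9.39 and 9.41 against 9.44, 9.38 and 9.41 (0.01 ± 0.04, 95% interval -0.09 to 0.11). Its 4 probe sets ran from -0.16 ± 0.08 (adjusted p = 0.435 over all probe sets) to 0.01. Tomm22, the central receptor, gave -0.04 ± 0.05. Tomm40, the channel itself, read 6.64, 6.56 and 6.77 against 6.77, 6.85 and 6.77 (0.14 ± 0.08, adjusted p = 0.5), and its relative Tomm40l gave 0.03 ± 0.06. Tomm7, a small subunit, gave 0.01 ± 0.05.

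On the carrier branch, Timm22, the channel that inserts carriers, read 8.26, 8.202 and 8.22 against 8.33, 8.34 and 8.25 (0.08 ± 0.05, adjusted p = 0.571). Its partners Timm29 and Timm10b gave -0.10 ± 0.08 and -0.03 ± 0.05. Timm29 read 7.77 in deficient replicate 1, below all the others, which lay from 7.98 to 8.07. The small Tim chaperones, which escort carriers between the membranes, ranged from -0.09 to 0.10. Timm8b was the highest, at 7.96, 7.94 and 8.03 against 8.15, 8.04 and 8.05 (0.10 ± 0.06, adjusted p = 0.5). Timm8a1 gave 0.08, Timm9 by 0.05, Timm10 by 0.04 and Timm13 by -0.04, and Timm8a2 was dim. The 2 symbols that do not name import subunits were Tomm34, a cytosolic co-chaperone (-0.03 ± 0.05), and Timmdc1, a complex I assembly factor (-0.07 ± 0.11).

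**Figure D4:**
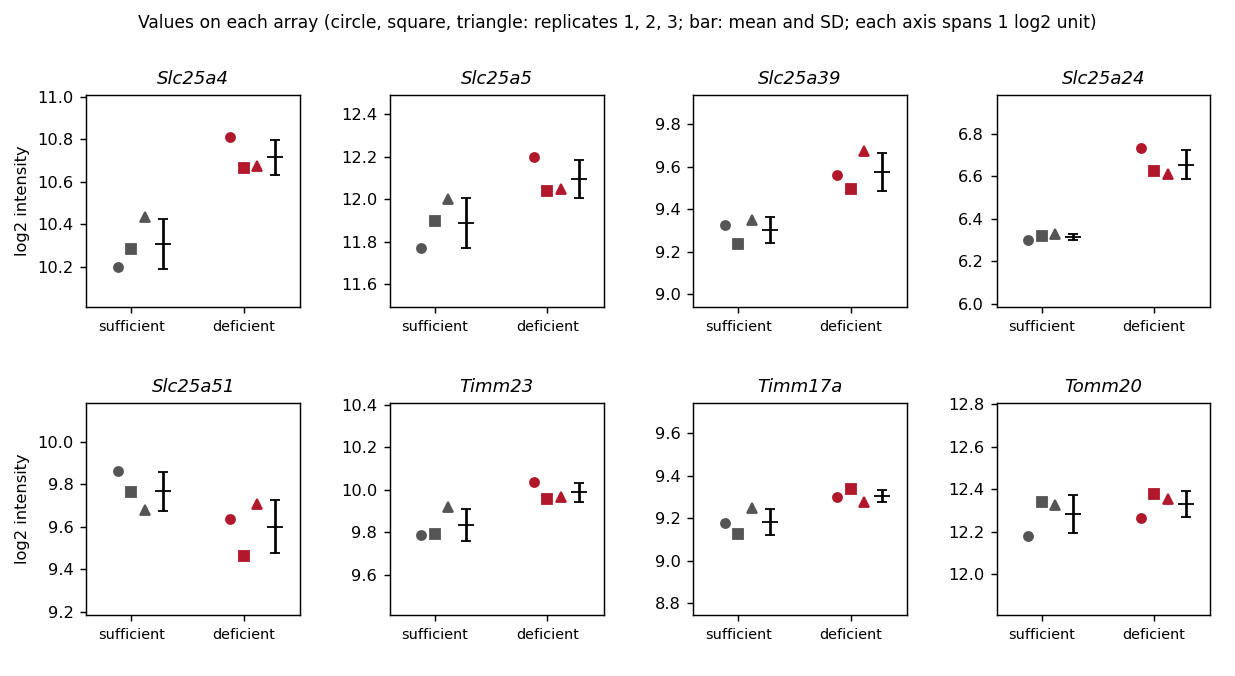
log2 intensity of 8 genes on each array, with circles, squares and triangles for replicates 1, 2 and 3 and a bar for the group mean and SD; each vertical axis spans 1 log2 unit. Slc25a4, Slc25a5, Slc25a39, Slc25a24, Timm23 and Timm17a separate the groups, while Slc25a51 and Tomm20 overlap.

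Set against each other, carriers and import genes had like medians and unlike spreads. The median log2 change was 0.03 over the 33 carriers and 0.04 over the 22 import genes, against 0.01 over all genes. The middle 50% of changes ran from -0.05 to 0.18 in carriers, -0.03 to 0.08 in import genes and -0.07 to 0.09 in all genes. The median SE was also larger in carriers (0.08) than in import genes (0.06), and its part in the spreads was not tested. A positive change was seen in 18 of 33 carriers and 14 of 22 import genes, or 54.5% and 63.6%, against 53.0% of all genes. The 95% interval lay inside ±0.25 in 16 of 22 import genes and 13 of 33 carriers, and the widest reached 0.32 in import genes and 0.64 in carriers. The mean import level minus the mean carrier level, each centred on its genes' means, ran from -0.0070 to 0.0374 over the sufficient arrays and from -0.0414 to 0.0252 over the deficient arrays, so the groups overlapped. The mean carrier level itself was between -0.0366 and -0.0066 in the sufficient and between 0.0173 and 0.0259 in the deficient arrays, without overlap. The mean import level overlapped, at -0.0298 to 0.0008 and -0.0241 to 0.0481. So did the mean level of all genes, at -0.0107 to 0.0038 and -0.0039 to 0.0102. A mean can be moved by a few genes with large changes. The import median minus the carrier median was 0.01, and its sign turned in 4 of 6 fits with an array left out. It was -0.0144 without sufficient replicate 1, -0.0268 without sufficient replicate 2, -0.0107 without deficient replicate 2 or 3, 0.0344 without deficient replicate 1 and 0.0595 without sufficient replicate 3. The carriers' own median was -0.02 without sufficient replicate 3. Deficient replicate 1 was the lowest of its group in 12 of 22 import genes and 14 of 33 carriers, against 40.2% of all genes. Sufficient replicate 2 was the lowest of its group in 12 import genes and 9 carriers, against 34.1% of all genes. Deficient replicate 2 was the highest of its group in 12 import genes and 10 carriers, against 27.9% of all genes.

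**Figure D5:**
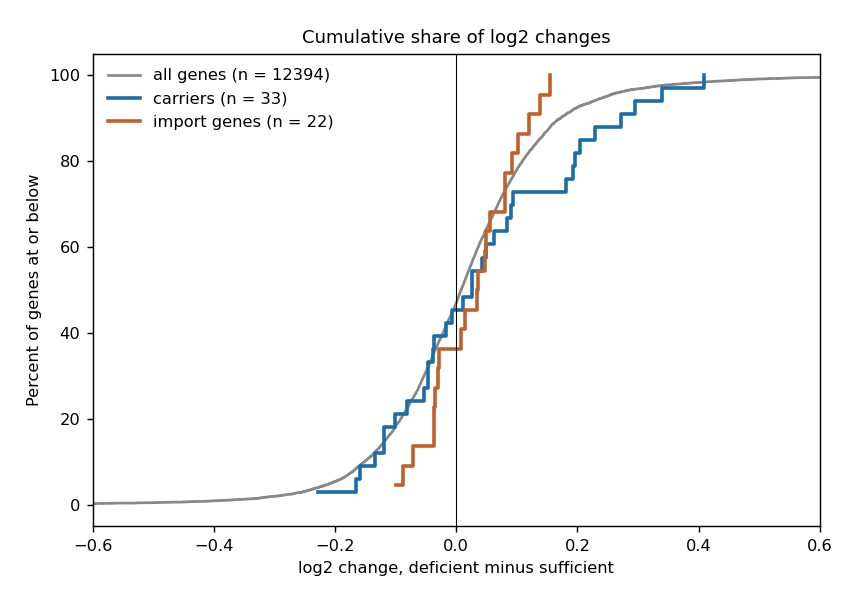
Cumulative percent of genes at or below each log2 change (deficient minus sufficient) for all 12394 genes, the 33 carriers and the 22 import genes; the axis shows -0.6 to 0.6. The curves cross 50% at medians of 0.01, 0.03 and 0.04, the import curve is the steepest, and the carrier curve lies below the other curves between 0.1 and 0.2.

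Genes of the same pathways outside these symbols gave few calls. Of 20 measured import partners 0 were called by limma, and their median was 0.04. An unadjusted p under 0.05 was reached by 4 of them. The change was positive in 3 (8.63% of all genes) and negative in 1 (5.80% of all genes). The nearest was Romo1, a small inner membrane protein, at 9.37, 9.32 and 9.49 against 9.68, 9.63 and 9.58 (0.24 ± 0.06, adjusted p = 0.0677). Samm50, which inserts outer membrane barrel proteins, gave 0.14 ± 0.05, Phb2 (prohibitin) by 0.13 ± 0.05 and Dnajc15 by -0.21 ± 0.09. Of 16 other transport genes 1 rose and 0 fell, against 1.44% and 0.766% of all genes, and the median was 0.08. An unadjusted p under 0.05 was reached by 5 with a positive and 0 with a negative change (8.63% and 5.80% of all genes), and 6 were higher without overlap (11.3% of all genes). Mpc1, a subunit of the mitochondrial pyruvate carrier, read 8.79, 8.91 and 8.97 against 9.16, 9.16 and 9.16, higher by 20.1% and without overlap (0.26 ± 0.06, adjusted p = 0.0439). When single arrays were left out Mpc1 passed once in 6 fits (adjusted p 0.0467 to 0.163). Its call was also lost without the intensity trend (0.157) and with arrays centred on their medians (0.0511). Sfxn1, a serine transporter, gave 0.20 ± 0.05, and Vdac1 and Vdac2, the outer membrane channels for nucleotides, by 0.23 ± 0.07 and 0.16 ± 0.04, and none of these passed (adjusted p 0.0683, 0.119 and 0.0705). The fifth gene at that unadjusted p was Tspo, an outer membrane protein named after its values were seen (0.20 ± 0.06, adjusted p = 0.143). Of 14 regulators of mitochondrial biogenesis 0 were called by limma, though 1 gene of each sign (Myc and Polg) reached an unadjusted p under 0.05, and their median was -0.06. Among these Myc gave 0.29 ± 0.10, Polg by -0.14 ± 0.06, Gabpa by -0.11 ± 0.08 and Gabpb1 by -0.30 ± 0.17, with Gabpb1 low in deficient replicate 1 (6.39, against 7.03 to 7.29 elsewhere).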

How the data were processed

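Total RNA of sorted Treg cells was extracted with Trizol and 6 ug was labelled as biotinylated cRNA, per the labels' protocols. The authors deposited log2 intensities of 22690 probe sets on 6 arrays, made with RMA per the submitters' processing notes, with no version named. RMA makes array distributions alike, so a shift common to most genes would not be seen. Batches were not analysed here.

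Probe sets were named through the platform annotation (20393 with 1 gene, 691 with several, 1606 not listed), and the highest-mean probe set stood for each gene. Of the 55 members 5 were dim (mean under the 40th percentile, 5.25) and stayed in the fit. Groups came from the array titles, with 3 mice a group per the design text. They were compared with limma 3.58.1 in R 4.3.3 (intensity trend, two-sided), and the script was checked on simulated data. The alternatives were the replicate block, no trend, robust variance, dim genes left out, repeated quantile normalization, median centring, array weights, averaged or suffix-free probe sets, and each array left out. Separate probe sets, and import genes without Tomm34 and Timmdc1, were added after seeing the data.

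The members, role groups and lists were chosen with earlier results of these data known. The naming rule took called members, the 6 with the smallest p and the 3 highest and 3 lowest means per class, ADP/ATP carriers, mitoferrins, core import subunits and members with discordant probe sets, and in other lists called genes and the 4 with the smallest p. Other members are given for completeness, and Slc25a51 was detailed after its values were seen. Figures used matplotlib 3.10.9.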

Additional observations from a re-analysis of the deposited data

How the results depend on the processing

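The number of arrays limits the precision, and signal over background cannot be read from RMA values. The median SE was 0.08 for carriers and 0.06 for import genes. Over all genes 274 were called, 54 with no trend, 585 when arrays were weighted by quality, and 62 to 270.0 with 1 array left out (62 without sufficient or deficient replicate 2, 102 without deficient replicate 3, 179 without sufficient replicate 3). Of the carriers 2 were called, 0 without the trend, 0 without probe sets ending in a suffix (which leaves Slc25a4 on its dim probe set and Slc25a39 out), 4 with array weights, and 0 to 1 with 1 array left out. Import genes had 0 limma calls in every setting run. The carriers' median was -0.017 to 0.0453 and the import minus carriers median -0.0268 to 0.0595 with 1 array left out. The import median stayed positive in every setting run, from 0.0185 to 0.0532. The replicate numbers are not stated to pair mice. Deviations of same-numbered arrays correlated at 0.04, -0.02 and 0.07, which cannot show whether those arrays share a litter, day or batch. With the replicate block 368 genes and 2 carriers were called, and class medians cannot move under it. Over the named genes 0 called changes reversed. A further 21 values of uncalled genes crossed 0 under planned settings, 19 calls were lost and 4 gained. The cause was not tested.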

Other observations

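Tomm5 and Tomm6, small subunits of the TOM complex, are read by probe sets that also match another gene, so their values belong to no single gene. The probe set shared by Tomm5 and Gm8069 read 9.87, 9.78 and 9.85 in the sufficient and 9.88, 9.90 and 9.91 in the deficient arrays. The probe sets shared by Tomm6 and Prickle4 read 7.16, 7.17 and 7.19 against 7.16, 7.13 and 7.30, and 10.38, 10.28 and 10.32 against 10.29, 10.33 and 10.41.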
